A study of Mus musculus and Homo sapiens with 12 samples.

Results

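The m5C-precipitated chromatin-associated RNA of wild-type cells was described here by the repeat elements it came from, in mouse embryonic stem cells (mESC) and in the human leukaemia line K562. The 6 libraries with the genotype WT were chosen of 12 in the series, 3 of mESC and 3 of K562, and the libraries of Tet2 KO mESC and TET2 KO K562 were not used. The question was how the make-up of each baseline compared with the repeats that its genome holds, and where mESC and K562 differed.

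The mESC were kept in serum medium with LIF and the inhibitors CHIR99021 and PD0325901 and passaged on gelatin to clear feeder cells. The K562 cells, an established line derived from a chronic myeloid leukaemia, were kept in RPMI-1640 with serum. In both, RNA that stayed with the chromatin pellet was fragmented and precipitated with an antibody to 5-methylcytosine (m5C), a methylated form of cytosine in RNA, and counted per repeat element. No agent or knockdown is named for these libraries. mESC and K562 differ in species, genome, annotation and cell type at once, and these cannot be told apart. No input libraries enter the comparison, so a high share can be abundant RNA, strongly precipitated RNA, or both, and these cannot be told apart either. Nothing in the labels says whether r1 to r3 came from separate cultures, so the p-values measure only the spread between these libraries.

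Repeats are grouped into 4 classes. LINEs, led by L1, and LTR elements, which derive from endogenous retroviruses, carry or once carried a reverse transcriptase. SINEs, such as Alu in primates and B1 and B2 in rodents, are short and depend on the enzymes of LINEs, and DNA transposons move without an RNA step and are mostly old, inactive copies in mammals. In this text the enrichment of a group is log2 of its share of a library's counts in the 4 classes over its share of the annotated base pairs (bp) of the 4 classes in that genome, so that 0 means counts in proportion to annotated length.

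The libraries held 2199886.37, 3171700.96 and 3318565.41 counts in the 4 classes in mESC and 649904.62, 498144.95 and 560162.4 in K562. K562 was therefore the shallower line, and only 1.94% to 2.51% of its elements had counts, against 3.72% to 4.28% in mESC. At a common depth of 498144.95 counts, 42970 to 46724 elements were expected to have a read in the mESC libraries and 37606 to 48428 in the K562 libraries. These numbers overlap. As shares of the elements of each genome they were 1.36% to 1.48% in mESC and 0.962% to 1.24% in K562, which do not overlap. Replicates correlated at r = 0.983 to 0.990 over families in mESC and 0.903 to 0.925 in K562 on a log2 scale of depth-normalised counts, and less well over single elements of at least 50 counts, at 0.385 to 0.464 in mESC and -0.210 to -0.0818 in K562. Families and classes are therefore the firmer levels here, and single K562 elements the weakest. Counts in elements inside the genes of an erythroid and leukaemia list, scaled as CPM, came to 925, 381 and 335 in K562 and 45.2, 12.2 and 7.23 in mESC. These sums are over 10 genes in K562 and 8 in mESC, where HBG1 and HBE1 had no matched symbol. HBE1 alone gave 380, 185 and 147 in K562, and KLF1, TAL1 and HBG1 had no counts there. For a pluripotency list the sums came to 251, 30.1 and 11.6 in K562 and 92.8, 26.6 and 38.9 in mESC. This list did not separate the cell types by these elements.

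The sequences shown first are of the elements with the highest counts in FordPrefect and MER45C, DNA transposon subfamilies that held most K562 counts of the hAT-Tip100 family. The same 801 bp FordPrefect element was present at 3 positions of the human table with identical sequence, 2 of them on chromosome 21, and its last 300 bases are shown from the copy with the highest count. The mouse element with nearly all FordPrefect counts is shown beside it, since both stop at position 955 of the transposon's consensus sequence. This is not the end of the consensus, which runs on for 728 bases. The human MER45C element, of the same family, is the one with the highest count of its subfamily. All are from the genomes hg38 and mm10, on the plus strand, 5′ to 3′, with CpG dinucleotides in capitals.
FordPrefect, human, chr21:8206287-8206586: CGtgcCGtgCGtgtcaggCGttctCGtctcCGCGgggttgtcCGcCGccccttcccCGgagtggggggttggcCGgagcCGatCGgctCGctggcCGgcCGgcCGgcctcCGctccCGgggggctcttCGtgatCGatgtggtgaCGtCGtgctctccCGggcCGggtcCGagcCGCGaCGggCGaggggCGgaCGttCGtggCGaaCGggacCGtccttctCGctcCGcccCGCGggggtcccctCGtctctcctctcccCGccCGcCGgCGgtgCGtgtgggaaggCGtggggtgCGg
FordPrefect, mouse, chr17:39842998-39843163: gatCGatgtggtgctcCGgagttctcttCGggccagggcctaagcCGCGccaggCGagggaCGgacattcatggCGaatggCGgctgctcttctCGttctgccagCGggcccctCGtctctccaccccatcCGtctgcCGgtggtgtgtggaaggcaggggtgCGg
MER45C, human, chr21:8439304-8439412: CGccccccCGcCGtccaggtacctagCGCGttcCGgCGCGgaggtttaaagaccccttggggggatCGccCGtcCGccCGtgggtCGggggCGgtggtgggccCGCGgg

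A B1_Mm element of mESC is shown as a rodent SINE, derived from 7SL RNA. The element, on the plus strand outside genes, had 4.6, 3.2 and 2.73 counts, and its 146 bases held 8 CpG dinucleotides, again in capitals.
B1_Mm, mouse, mm10 chr17:21846506-21846651: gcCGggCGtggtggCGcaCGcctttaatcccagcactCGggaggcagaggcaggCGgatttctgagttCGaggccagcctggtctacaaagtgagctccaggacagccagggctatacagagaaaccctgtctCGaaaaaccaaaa

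Across classes, mESC counts lay in LINE and LTR elements, whereas K562 counts were spread over all 4 classes. LINEs held 64.9% ± 1.32 (SD, n = 3) of mESC counts, with 64.0%, 64.2% and 66.4% in the libraries, against 56.0% of annotated bp. In K562 LINEs held 50.9% ± 1.85 (SD, n = 3), with 51.5%, 48.8% and 52.3%, against 54.9% of bp. LTR elements held 32.6% ± 1.09 in mESC for 26.3% of bp and 12.03% ± 0.471 in K562 for 16.9% of bp. In mESC SINEs made up 47.4% of elements, 15.3% of bp and 2.44% ± 0.276 of counts. In K562 SINEs held 22.0% ± 1.90 of counts for 21.3% of bp. DNA transposons, with 2.47% of mESC bp, held 0.135%, 0.114% and 0.118% of counts. In K562 they held 13.0%, 16.1% and 16.1% for 6.86% of bp. The excess lay mostly in the FordPrefect subfamily, which held 7.21%, 9.53% and 9.84% of all K562 counts for 0.019% of bp.

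**Figure D1:**
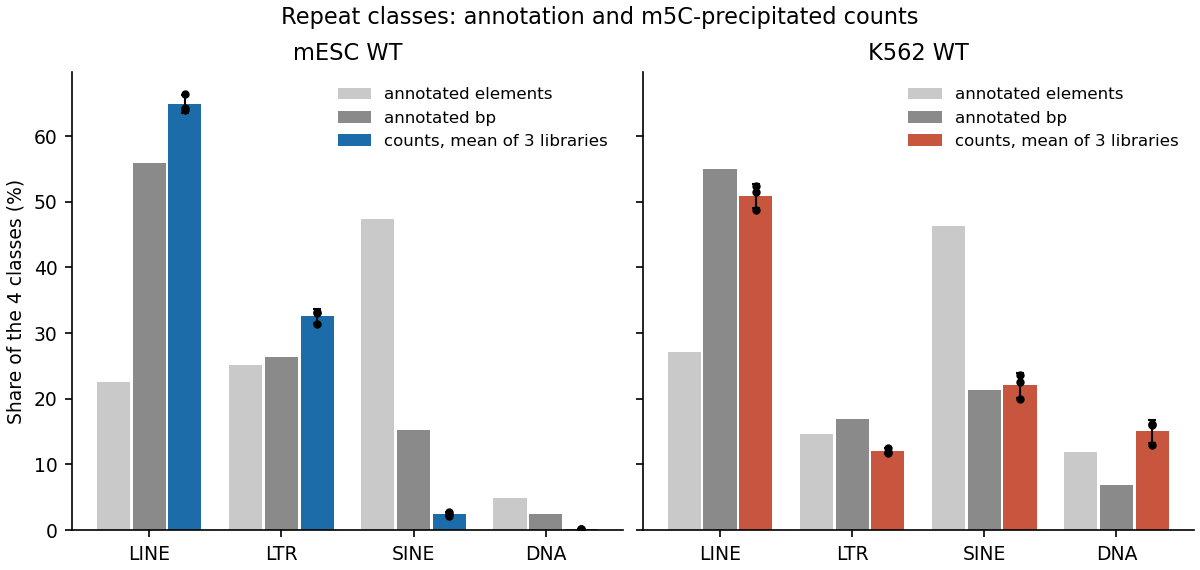
Share of the 4 classes (%, y axis) by class in mESC WT (left) and K562 WT (right), for annotated elements, annotated bp and counts. Coloured bars are means of 3 libraries with SD, and points are libraries. The mESC SINE bar, at 2.44%, is far under its 15.3% of bp, and the K562 DNA bar, at 15.1%, is above its 6.86%. The FordPrefect subfamily alone gives 8.86% of K562 counts within that DNA bar.

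The libraries of mESC and K562 did not overlap in the share of any of these classes. The enrichment was higher in K562 than in mESC by 5.47 on the log2 scale for DNA transposons and by 2.69 for SINEs. It was lower by 0.32 for LINEs (log2 difference -0.32) and by 0.80 for LTR elements (-0.80). A two-sided exact permutation test, which has 20 ways to assign 6 libraries to the lines, gave p = 0.1 for each class, which is the smallest it can give, and 0.1 after Benjamini-Hochberg adjustment. With 3 libraries against 3 this test cannot pass a threshold of 0.05.

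Of 48 families in the mouse table and 46 in the human table, 44 had the same name in both, and these held 98.5% ± 0.164 of mESC counts and 99.9% ± 0.0703 of K562 counts. The edgeR quasi-likelihood test kept 35 shared families after its filter on low counts. Of these, 29 (82.9%) were more enriched in K562 and 3 (8.57%) were less enriched. The filter keeps families through the line where they are high, which bears on these counts. PiggyBac and 5S-Deu-L2, for example, were called higher in K562 with mean counts in mESC of only 2.13 and 8.24. A count of families higher in K562 thus stands near the background for most groups below. Scaling with trimmed means (TMM), which sets the bulk of families equal, moved the median difference from 2.81 to 0.49 and left 6 families higher and 5 lower. Families that kept the same call under all 19 settings were hAT-Tip100, hAT-Charlie, hAT, TcMar-Tigger, MIR and Dong-R4, higher in K562, and ERV1, lower in K562. Of these, Dong-R4 and hAT passed the filter through K562, where they are high. Dong-R4 had 0, 1 and 0 counts in mESC and 15.31, 18.87 and 20.78 in K562, with 86.0% of the latter in 1 element. The hAT family had 4.5, 6.4 and 13 counts in mESC and 163.64, 450.66 and 366.75 in K562, with 60.9% of the latter in 1 element. No setting left out every FordPrefect and MER45C element, which held most K562 counts of hAT-Tip100.

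**Figure D2:**
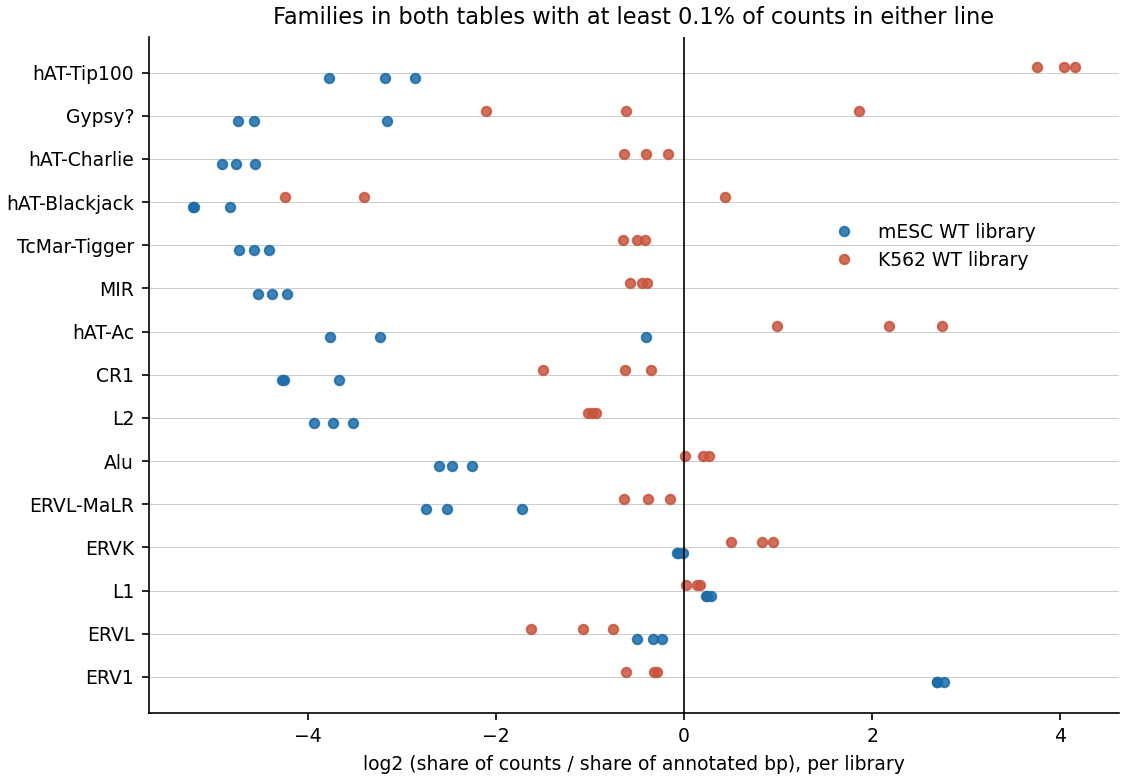
Enrichment per library (x axis, log2 of share of counts over share of annotated bp) of the 15 families present in both tables with at least 0.1% of counts in either line (y axis). Blue points are mESC WT and red points K562 WT libraries. The hAT-Tip100 and ERV1 points lie on opposite sides of 0 in the 2 lines, and the Gypsy? and hAT-Blackjack points of K562 are widely spread.

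Within each line, families were also tested against their annotated length. In mESC, 2 of 26 families (7.69%) were above it, L1 and ERV1, and 22 (84.6%) were below it. In K562, 4 of 30 families (13.3%) were above it, hAT-Tip100, hAT-Ac, ERVK and Alu, and 16 (53.3%) were below it.

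L1, the only LINE family still able to copy itself in mouse and human, was the most counted family in both lines. It held 63.9%, 64.1% and 66.3% of mESC counts for 54.2% of bp, and 44.4%, 41.0% and 45.4% of K562 counts for 40.4% of bp. As a family it was thus close to its annotated length in both. Its enrichment of 0.26 (SE 0.02) in mESC was called by edgeR (adjusted p = 6.29e-06) and not by limma (adjusted p = 0.0629), and its 0.11 (SE 0.06) in K562 was not called (edgeR adjusted p = 0.0926). The difference between lines was -0.15 (SE 0.05, edgeR adjusted p = 0.0250, limma 0.418). It turned to 0.21 with only the elements counted in all 3 libraries. It was 0.13 without elements that overlap an exon or lie on sequences without gene annotation.

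Inside L1 the groups with the highest fold over bp were young lineages of each species. In K562 the old L1M subfamilies also held 15.2% ± 0.253 of all counts. In mESC the 3 L1MdTf subfamilies, an active young mouse lineage, made up 2.14% of annotated bp and held 32.0%, 31.7% and 34.0% of all counts, 15.2-fold their share of bp. L1MdTf_II alone held 14.2% ± 0.532 and L1MdTf_I 13.0% ± 0.556 (SD, n = 3), at 22.3-fold and 23.2-fold. L1MdGf held 6.13% ± 0.131 for 0.997% of bp and L1MdA 12.9% ± 0.235 for 5.43%. The order of fold over bp ran from L1MdTf through L1MdGf at 6.15-fold, L1MdA at 2.38-fold and L1MdN at 1.72-fold, and the libraries of neighbours in this order did not overlap. Below their share of bp were L1MdF at 0.578-fold, L1MdV at 0.316-fold, the L1_Mus, L1_Mur and L1_Rod group at 0.272-fold and Lx at 0.202-fold. Lx, an old rodent lineage, covered 18.7% of bp and held 3.79% ± 0.059 of counts.

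In K562 the human-specific lineage stood highest. L1HS, which still copies itself, held 3.12%, 3.20% and 4.75% of counts for 0.179% of bp, 20.2-fold its share. The 17 L1PA subfamilies, of primates, held 21.6% ± 1.22 for 8.67% of bp, and among them L1PA3 held 6.56% ± 0.791 and L1PA2 6.39% ± 0.969, at 6.29-fold and 12.4-fold. L1PB, older, held 1.06% ± 0.485 at 0.579-fold, with libraries from 0.590% to 1.56%.

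**Figure D3:**
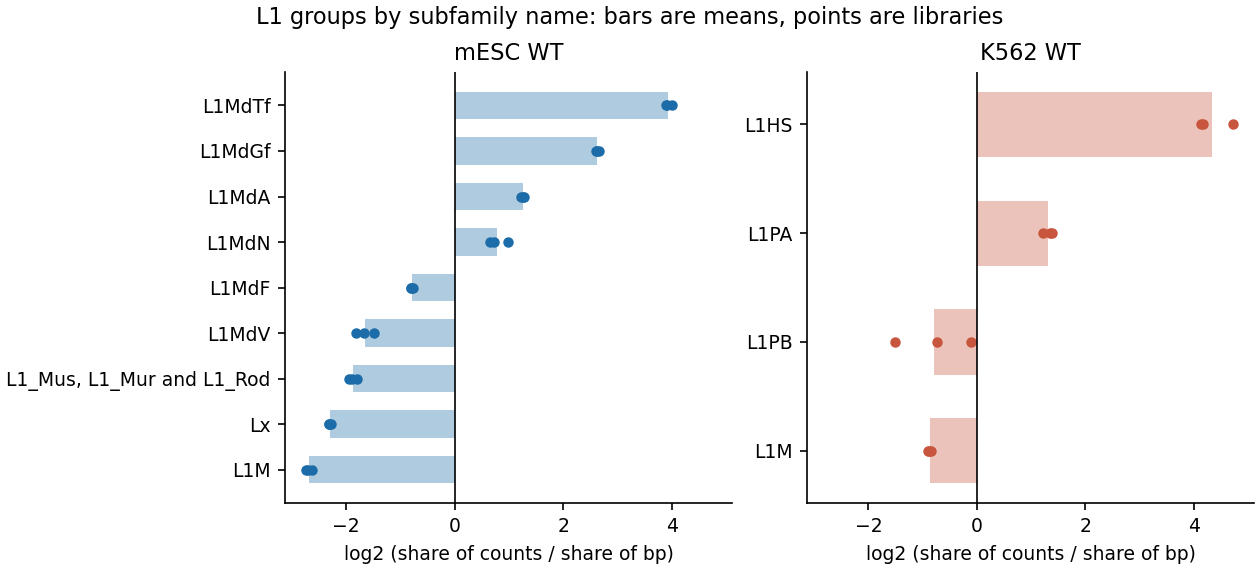
Enrichment (x axis, log2 of share of counts over share of annotated bp) of L1 groups formed by subfamily name, in mESC WT (left) and K562 WT (right). Bars are means and points the 3 libraries. L1MdTf in mESC and L1HS in K562 stand furthest to the right, and L1M, found in both genomes, stands left of 0 in both.

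The L1M subfamilies, old mammalian L1 that both genomes carry, were below their annotated length in both lines but by unequal amounts. They held 1.11% ± 0.0469 of mESC counts for 7.21% of bp, 0.154-fold, and 15.2% ± 0.253 of K562 counts for 27.8% of bp, 0.546-fold. None of the 85 mESC subfamilies, and 5 of the 88 in K562, had a mean share above their share of bp. Among the shared L1M names that could be tested, 53 of 81 were more enriched in K562, beside 213 of 320 (66.6%) over all shared names tested, with a median difference of 2.20 that became -0.12 under TMM.

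The counts of L1 also differed by element length. Length here is the genomic span of the joined fragments, which can exceed the L1 sequence in it. The K562 element L1ME3G on chromosome 2, for one, spans 2815 bp for positions 5437 to 5797 of its consensus. A long span is thus not by itself a full L1. Elements that span at least 6000 bp numbered 34900 in mESC, made up 37.4% of L1 bp and held 80.0% ± 0.477 of L1 counts. In K562 33157 such elements made up 32.9% of L1 bp and held 44.6% ± 2.04 of L1 counts. L1 fragments under 500 bp held less than their bp share in mESC, with 0.191% ± 0.0612 of L1 counts under 200 bp for 2.46% of L1 bp, and 0.737% ± 0.105 from 200 to under 500 bp for 8.05%. In K562 these bins held 1.59% ± 0.568 for 2.11% and 4.26% ± 1.36 for 5.75%.

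**Figure D4:**
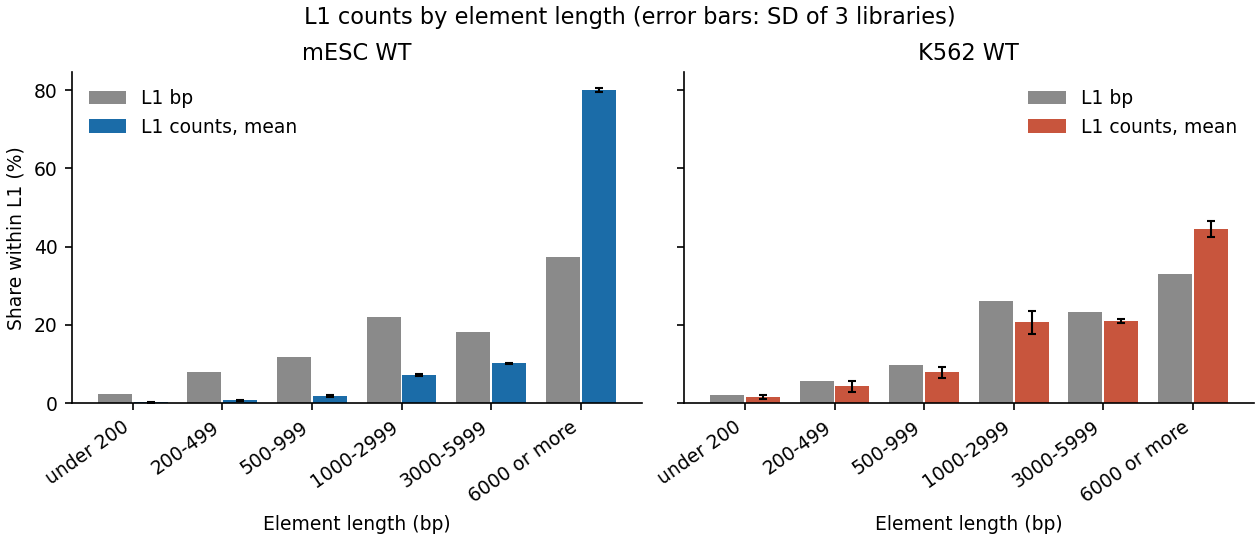
Share within L1 (%, y axis) of annotated bp (grey) and of counts (coloured, mean of 3 libraries with SD). The x axis is element length as genomic span (bp), in mESC WT (left) and K562 WT (right). In mESC 80.0% of L1 counts fall in the longest bin, and in K562 44.6%.

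The L1 counts of mESC were also shared more evenly between libraries. Of the L1 elements counted in any library, 37.9% were counted in all 3 mESC libraries and held 95.7% of L1 counts, against 25.7% and 65.9% in K562. Of L1 elements with at least 50 counts, 9.22% in mESC and 43.8% in K562 had at least 90% of them in 1 library. Depth differed as given above, and its part in this was not tested.

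L2 and CR1, LINEs that stopped copying early in mammalian evolution, were below their annotated length in both lines. L2 held 0.124%, 0.107% and 0.0933% of mESC counts for 1.42% of bp and 6.44% ± 0.211 of K562 counts for 12.7% of bp. L2c and L2a led it in K562 with 2.04% ± 0.645 and 2.00% ± 0.198. The enrichment differed by 2.74 for L2 (SE 0.16, edgeR adjusted p = 8.80e-07) and by 3.29 for CR1 (SE 0.44, adjusted p = 2.74e-04). Under TMM both kept their direction at 0.36 and 0.82 and lost the call (adjusted p = 0.0697 and 0.147).

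Among LTR families, mESC stood apart through ERV1. ERV1, the gamma-retrovirus-like family, held 17.5%, 18.4% and 17.5% of mESC counts for 2.72% of bp, an enrichment of 2.71 (SE 0.02, edgeR adjusted p = 1.80e-12, limma 1.15e-04). In K562 it held 4.48%, 4.40% and 3.57% for 5.48% of bp, at -0.40 (SE 0.13, edgeR adjusted p = 0.00810, limma 0.124). The difference of -3.11 (SE 0.12) was called by edgeR (adjusted p = 1.17e-07) and limma (adjusted p = 5.88e-05). It compares mostly different subfamilies. Names shared by both genomes held 0.212% ± 0.0747 of mESC ERV1 counts and 6.52% ± 2.55 of K562 ERV1 counts.

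In mESC this family was carried by few subfamilies. The VL30 and RLTR6 group, mouse retroelements that encode no working proteins, made up 0.279% of bp and held 10.9% ± 0.403 of counts, 38.9-fold. Its internal part MMVL30-int held 8.11%, 8.52% and 8.09%, 129-fold its share of bp, with 19.1% of this in 1 element. RLTR4_MM-int, related to murine leukaemia virus, held 4.97% ± 0.105, 102-fold. MMERGLN held 0.411% ± 0.0552 at 2.65-fold. The MMVL30-int element at mm10 chr11:86812241-86815876, outside genes and 4495 bp from Dhx40, had 33314.72, 53642.42 and 49639.87 counts, the highest mean of any mESC element. The next, at chr19:4061915-4065815 and 2346 bp from Gstp3, had 24753.48, 36082.76 and 36939.08. Of the other MMVL30-int elements, the next had 12289.04, 16795.65 and 22622.36 counts, outside genes. Another, at chr13:55185025-55188682 outside genes, had 5098.25, 12253.13 and 10083.14.

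In K562 no ERV1 group reached such shares. HERVIP10FH-int held 0.499% ± 0.180 at 19.8-fold and HERVH-int, a primate provirus, 0.354% ± 0.211 at 0.961-fold. The HERVH and LTR7 group held 0.616%, 0.671% and 0.262%, and the HERV9 and LTR12 group 0.203%, 0.451% and 0.605%, so that the libraries of these groups overlap.

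ERVK, the beta-retrovirus-like family, shares no subfamily name between the genomes. It held 10.5% ± 0.233 of mESC counts for 10.9% of bp and was not called (enrichment -0.05, SE 0.04, edgeR adjusted p = 0.246). Within it, IAP elements, active mouse proviruses, held 6.19% ± 0.3895 for 1.89% of bp, with IAPEz-int at 4.10% ± 0.291. ETn and MusD held 1.41% ± 0.195 at 2.94-fold, of which MMETn-int held 0.745% ± 0.153, and RLTR10 0.993% ± 0.148 at 2.67-fold. In K562 ERVK held 0.916%, 0.994% and 0.729% for 0.516% of bp, an enrichment of 0.77 (SE 0.25, edgeR adjusted p = 0.00847, limma 0.0399). The HERVK and LTR5 group held 0.190%, 0.414% and 0.114% of this line's counts, 0.770-fold. A single MER11B element, at hg38 chr3:15738159-15739435 over an exon of ANKRD28 and over RN7SL4P, held 55.0% of K562 ERVK counts with 4379.42, 2088.83 and 1775.52. The difference between lines was 0.82 (SE 0.14, edgeR adjusted p = 9.24e-04). It fell to 0.0172 without elements that overlap an exon or lie on sequences without gene annotation (edgeR adjusted p = 0.946). It turned to -0.20 without the 10 highest elements of each line and to -1.60 under TMM.

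ERVL and ERVL-MaLR lay at or below their annotated length in both lines. In mESC, ERVL held 2.24%, 2.39% and 1.99% of counts for 2.81% of bp, and 81.9% of this was MERVL-int, a provirus known for its expression in cells that resemble the early cleavage embryo. MERVL and its LTR MT2_Mm together held 1.98% ± 0.190 for 0.418% of bp, 4.72-fold. In K562 ERVL held 1.76%, 1.21% and 2.20% for 3.71% of bp, with ERV3-16A3_I-int at 0.236% ± 0.166 and LTR67B at 0.0308%, 0.0264% and 0.490%. The difference was -0.76 (SE 0.24, edgeR adjusted p = 0.0173). ERVL-MaLR held 2.97%, 1.71% and 1.47% in mESC for 9.79% of bp, where r1 stood above the other two, and 37.995% of it was 1 MTE2b element in an intron of Gm15218, at mm10 chr14:45812580-45812927. That element had 37445.9, 11936.68 and 14510.84 counts. In K562 ERVL-MaLR held 4.19%, 5.88% and 5.01% for 6.54% of bp, led by MSTA at 1.47% ± 0.307 and MSTA-int at 0.615% ± 0.0626. The difference of 1.88 (SE 0.28, edgeR adjusted p = 4.77e-04) turned to -0.46 under TMM.

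The MaLR groups differed in age and in share. The rodent MT and ORR1 groups held 0.361-fold and 0.077-fold their share of bp in mESC, and MTA_Mm held 0.580% ± 0.0856. In K562 the MST group held 2.32-fold and THE1 0.422-fold. MLT1, the old group of both genomes, held 0.0591% ± 0.0254 of mESC counts, 0.039-fold, and 1.83% ± 0.424 of K562 counts, 0.451-fold.

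SINE families are largely specific to each genome. The primate and rodent members of the Alu family share 1 subfamily name, and the family is B1 in mouse. B1 held 1.03%, 0.889% and 0.807% of mESC counts for 4.92% of bp, and its enrichment was -2.44 (SE 0.15, edgeR adjusted p = 4.58e-06). Alu held 20.0%, 19.1% and 16.7% of K562 counts for 16.6% of bp, at 0.16 (SE 0.08, edgeR adjusted p = 0.0490, limma 0.453). The difference of 2.60 (SE 0.13, edgeR adjusted p = 3.45e-07, limma 1.37e-04) became 0.22 under TMM and was not called there (adjusted p = 0.209).

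Within Alu the youngest group stood highest. AluY held 4.78% ± 0.663 for 2.09% of bp, 2.27-fold, AluS 9.97% ± 0.590 at 0.967-fold and AluJ, an older group, 3.33% ± 0.335 at 0.880-fold. The Alu monomers, fossil forms, held 0.464%, 0.898% and 0.187%, at 0.996-fold. The named subfamilies AluY and AluSx held 2.78% ± 0.294 and 1.69% ± 0.467. The other rodent SINEs were below their bp in mESC, B2 at 1.19%, 0.914% and 0.967% for 4.42% of bp, B4 at 0.101-fold and ID at 0.079-fold. The youngest B2 name, B2_Mm1a, was above it, with 0.411% ± 0.104 at 1.77-fold, and B2_Mm1t held 0.213% ± 0.0386 at 0.752-fold. MIR, an old SINE carried by both genomes under the same 5 names, held 0.048-fold its bp share in mESC and 0.721-fold in K562, where MIRb held 1.56% ± 0.281 of counts and the subfamily MIR 0.863% ± 0.0998. Its difference was 3.90 (SE 0.20, edgeR adjusted p = 4.05e-07) and stayed called at 1.51 under TMM. SINE counts were thin in the single element. Of Alu family elements with at least 50 counts, 85.8% in mESC and 83.97% in K562 had at least 90% of them in 1 library.

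DNA transposons gave the largest class difference, which was 4.33 without 3 FordPrefect elements, and hAT-Tip100 held the most K562 counts of the class. This family held 8.90%, 10.9% and 11.8% of K562 counts for 0.663% of bp, an enrichment of 3.99 with limma's adjusted p = 0.00216. In mESC its enrichment was -3.23 (SE 0.42, edgeR adjusted p = 8.67e-05). The difference was 7.21 (SE 0.30, edgeR adjusted p = 1.40e-07). It fell to 3.55 without the 10 highest elements of each line and to 4.68 without 3 FordPrefect elements, and remained called in each. Both settings keep other MER45C elements, and the family without FordPrefect and MER45C was not tested. Over the 19 shared names tested in this family, the median enrichment in K562 was -2.44. Of these names, 2 were above their share of bp in all 3 K562 libraries.

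FordPrefect held 8.86% ± 1.43 of K562 counts (7.21%, 9.53% and 9.84%) for 0.019% of bp, 468-fold, and 0.0101% ± 0.00172 of mESC counts. Only 20 of its 398 human and 16 of its 192 mouse elements had any. The element printed above, at chr21:8205786-8206586, had 20908.05, 21526.24 and 26040.16 counts. The identical copies, at chr21:8388833-8389633 and on a contig of chromosome 22 without a fixed place, had 15171.82, 15523.38 and 16747.59, and 10794.95, 10432.09 and 12308.48. Fractional counts of identical copies cannot be assigned to 1 of them. Each is 75.5% GC with 117 CpG dinucleotides. Those on chromosome 21 overlap exons of unnamed lncRNAs and lie 5986 bp and 5974 bp from the annotated ribosomal RNA genes RNA5-8SN2 and RNA5-8SN3. In mouse 97.5% of FordPrefect counts came from the element printed above, with 240.95, 334.5 and 265.9, which is 3190 bp from the annotated ribosomal RNA gene CT010467.1. Aligned with the last bases of the human element, 130 of 175 columns (74.3%) were identical.

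MER45C repeated this picture in K562. It held 1.37%, 1.07% and 1.56% of counts for 0.021% of bp, 62.8-fold, and its element printed above, 411 bp from RNA5-8SN1, had 1907.96, 927.8 and 1881.62. In mESC the subfamily had 1.4, 3.2 and 1 counts. FordPrefect and MER45C made up 83.97% and 12.9%, respectively, of the K562 counts of hAT-Tip100. Ribosomal RNA is copied from arrays of near-identical genes as a long precursor, and the part of such transcripts in these counts was not tested.

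hAT-Charlie and TcMar-Tigger, old cut-and-paste transposons, lay below their annotated length in K562 and further below it in mESC. hAT-Charlie held 1.87%, 2.60% and 2.21% of K562 counts for 2.91% of bp, with MER1A at 0.851% ± 0.297 (10.7-fold) and MER5B at 0.241% ± 0.0701. TcMar-Tigger held 1.66% ± 0.139 for 2.39% of bp, with Tigger2 at 0.403% ± 0.103 and Tigger1 at 0.383% ± 0.189. Their enrichments differed from mESC by 4.35 (SE 0.26, edgeR adjusted p = 8.80e-07) and 4.04 (SE 0.26, adjusted p = 1.45e-06), and by 1.96 and 1.64 under TMM. The K562 values of these families, of CR1, MIR, ERV1 and ERVL-MaLR were below annotated length by edgeR but not by limma, whose adjusted p ran from 0.0686 to 0.144. The smaller families hAT-Ac, Gypsy? and hAT-Blackjack were uneven between K562 libraries. hAT-Ac held 0.387%, 0.114% and 0.262%, Gypsy? 0.343%, 0.0220% and 0.0617%, and hAT-Blackjack 0.0202%, 0.289% and 0.0113%. Each was called higher in K562 by edgeR (adjusted p = 0.00915, 0.00693 and 0.0167), and hAT-Blackjack was not called by limma (adjusted p = 0.0887).

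Subfamilies that both genomes carry under the same name allow a closer comparison than whole families. Their copies still differ, as with L2 elements of median 121 bp in the mouse and 197 bp in the human genome. Shares are also taken over all counts of a line, and not over the shared names alone. There were 659 shared names, of 1167 in mouse and 1131 in human. They held 14.5% of mESC bp and 1.53% ± 0.0498 of mESC counts, and 61.3% of K562 bp and 43.2% ± 1.37 of K562 counts. Of the 320 that passed the filter on low counts, 213 (66.6%) were more enriched in K562 and 4 (1.25%) were less enriched, and the filter keeps names through the line where they are high. The median enrichment was -4.91 in mESC and -2.23 in K562, and 0 names in mESC and 11 in K562 were above their share of bp in all 3 libraries. TMM moved the median difference from 2.63 to 0.33 and left 19 names higher and 11 lower.

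By family, the shared names in L1 gave a median difference of 2.20 with 56 of 87 higher, those in hAT-Charlie 3.34 with 35 of 42 and those in TcMar-Tigger 4.23 with 10 of 14. For MLT1 22 of 34 were higher with a median of 3.04, and for MIR 5 of 5 with 4.07. These shares can be read against the 66.6% over all names. ERV1 stood below it, with 9 of 23 higher and 2 lower. Its shared names had a median difference of 2.43, opposite in sign to the -3.11 of the whole family.

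The named extremes mostly rested on few elements. Those higher in K562 had few or no counts in mESC and passed the filter through K562, so their p-values give no separate support. Higher in K562 were MER45C by 12.29 (SE 0.53, edgeR adjusted p = 5.09e-07) and MLT1E2-int by 9.79 (SE 1.33, adjusted p = 0.00189), which had 0, 0.5 and 0 counts in mESC and 104.92, 96.37 and 136.32 in K562, 99.6% of them in 1 element. Tigger8 had no count in mESC and 20.38, 6 and 266.25 in K562. Its pooled K562 share was at least 75.5-fold higher against a floor of 3 counts over the mESC group, a bound that rests mainly on K562 r3. LTR103_Mam had none in mESC and 210.26, 44.98 and 6 in K562, at least 41.8-fold higher when pooled, which rests mainly on K562 r1. Charlie29b had 2.2, 0 and 0 counts against 33.79, 1083.03 and 19.53, so that K562 r2 holds most of it. Lower in K562 were MER57C2 by -4.26 (SE 0.85, edgeR adjusted p = 0.00476), with 365.33, 168.01 and 232.88 counts in mESC and 3.07, 1.6 and 4.2 in K562, and LTR33A_ by -3.81 (adjusted p = 0.0119). MamTip2b was lower by edgeR (-2.81, adjusted p = 0.0437) and not by limma (adjusted p = 0.131). In mESC, 97.5% of MER57C2 counts, 90.4% of LTR33A_ counts and 89.9% of MamTip2b counts lay in 1 element.

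Elements of the 2 lines also differed in where they lay, among those on sequences with gene annotation. Elements on other sequences, 141231 in human and 5833 in mouse over every class, are left out of these shares. The FordPrefect copy on the contig of chromosome 22 is among them. In K562 elements that overlap an exon made up 8.36% of bp and held 20.5% ± 1.31 of counts, and elements outside genes made up 41.4% and held 28.4% ± 0.245. In mESC these were 5.06% and 4.84% ± 0.175, and 64.0% and 68.9% ± 0.621. Within the DNA class of K562, 67.6% ± 3.89 of counts lay in exon-overlapping elements, which include FordPrefect on chromosome 21. Alu elements that overlap an exon held 8.09% of K562 Alu counts for 3.62% of Alu bp. The L1ME3G element with the fifth highest K562 count, at hg38 chr2:65337715-65340529 in an intron of SPRED2, had 3377.27, 956.12 and 1887.

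The counted elements were also richer in CpG dinucleotides than the annotation. Weighted by length, elements held 0.744 CpG per 100 bp in mESC and 1.04 in K562, and weighted by counts 1.63 ± 0.0233 and 2.98 ± 0.159. For L1 the values rose from 0.634 to 1.21 in mESC and from 0.724 to 1.11 in K562. For hAT-Tip100 in K562 they were 0.804 by length and 14.2 by counts, and GC content was 40.5% and 74.9%. This family held 10.5% of K562 counts, mostly in few FordPrefect elements, and thus weighs on the K562 value over all elements. That value was not computed without it. In mESC the same family had 0.725 and 4.81 CpG per 100 bp. These are properties of whole elements and do not locate reads or methylated cytosines within them.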

How the data were processed

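Chromatin-associated RNA was precipitated with an antibody to m5C and sequenced. Per the labels and methods, reads were trimmed with Trimmomatic 0.39, aligned to mm10 or hg38 with HISAT2 2.1.0, marked for duplicates with Picard and counted with featureCounts on elements joined by OneCodeToFindThemAll. The values, as deposited by the authors, are estimated counts per repeat element, fractional and not divided by depth. Why they are fractional is not given in the sources used here, and reads of near-identical copies may be split among them. Replicates were not pooled. No column of another series was present.

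Of 3158171 mouse and 3919868 human elements, the analysis kept LINE, SINE, LTR and DNA transposon elements, and 0.000485% to 0.0926% of counts lay outside them. Elements overlap, so that their union covers 85.4% of the summed bp in mouse and 80.9% in human. On alternate human contigs lie 132918 elements. The reference copy number is not that of K562 chromosomes. Genes and sequences were read from annotations and genomes of the same builds.

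Counts were summed per family and subfamily, rounded and tested with edgeR 4.0.16 (R 4.3.3) by quasi-likelihood F-test with offsets of log library total plus log share of annotated bp, after filterByExpr, with Benjamini-Hochberg adjustment at 0.05. The test of a single line against 0 was computed from edgeR's deviances, since glmQLFTest needs a further coefficient. It shares a trend over families, so limma 3.58.1 on log2 shares (pseudocount 0.5) is given beside it where the call differs. Class shares were compared by exact permutation. The 498144.95 to 3318565.41 counts per library set the precision.

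Alternatives were DESeq2 1.42.0, limma, TMM, no filter, element number in place of bp, every class, no exon overlap, elements counted in 3 libraries, without the 10 highest elements, the replicate number as a block and leaving out each library. Main chromosomes only and leaving out 3 FordPrefect elements were chosen after seeing the data. The setting without exon overlap also left out elements on sequences without gene annotation. Fits were tested on simulated data. Of changed features that passed the filter, changes of 4 on the log2 scale were recovered for 85.7% of shared families and 89.4% of shared subfamilies. Changes of 2 were recovered for 57.1% and 16.2%. Of all 8 changed families, 6 and 4 were called at changes of 4 and 2. Of all 80 changed subfamilies, 59 and 11 were called. For K562 families against bp, changes of 2 were recovered for 16.7%.

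Features named are the classes, families with at least 0.1% of counts in either line, the 2 highest subfamilies of families with at least 1%, the 5 most different called shared subfamilies in each direction whose mean count reached 50, and the 5 highest elements per line. FordPrefect and MER45C elements near ribosomal genes and the elements printed were chosen after their values were seen. The members and lists were chosen with earlier results of these data known.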

Additional observations from a re-analysis of the deposited data

Results flagged for a closer look

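The enrichment over annotated bp was called in opposite directions in mESC and K562 for 3 families, and the difference between lines was called in each. For hAT-Tip100, whose K562 counts were mostly FordPrefect and MER45C, it was -3.23 in mESC and 3.99 in K562, a difference of 7.21 on the log2 scale. For ERV1 it was 2.71 and -0.40, a difference of -3.11. For Alu, which is B1 in mouse, it was -2.44 and 0.16, a difference of 2.60, but the K562 value was close to the threshold (edgeR adjusted p = 0.0490) and limma did not call it (adjusted p = 0.453). ERV1 in K562 was likewise not called by limma (adjusted p = 0.124).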

How the results depend on the processing

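Of 838 values recomputed for the named families and subfamilies, 822 kept their direction, 87 of these lost the call and 17 gained it, and 16 reversed. The cause of each change was not tested.

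The class differences (K562 minus mESC, log2) moved with element number in place of bp to -0.62 for LINE, -0.66 for LTR and 3.21 for SINE. Without the 10 highest elements they were -0.25 for LINE, -0.51 for LTR and 4.05 for DNA. With elements counted in all 3 libraries they were -0.0884 for LINE, -1.24 for LTR, 3.36 for SINE and 7.85 for DNA. Without exon overlap they were -0.0885 for LINE and 4.19 for DNA, on main chromosomes -0.25 for LINE, and without 3 FordPrefect elements -0.19 for LINE, -0.66 for LTR and 4.33 for DNA.

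Of shared families, 6 were higher and 5 lower in K562 under TMM, and 22 to 27 were higher and 1 to 3 lower when leaving out each library, with 1 lower without mESC replicate 2. In mESC limma called 1 family above its bp, no filter called 44 below, and leaving out each library called 2 above and 20 to 21 below. In K562, 9 were below without the 10 highest elements, and 2 to 4 were above and 9 to 11 below when leaving out each library, with 2 above without replicate 1 or 2. Of shared subfamilies, 19 were higher and 11 lower under TMM, 2 were lower with elements counted in all 3 libraries, and 124 to 220 were higher and 2 to 4 lower when leaving out each library. The lowest, 124, was without mESC replicate 2.

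The replicate numbers were not taken to pair the samples. Same-numbered libraries deviated together at r = -0.734, 0.180 and 0.0986 over 14 families, and unlike-numbered ones at -0.439 to 0.677. With so few libraries these values cannot exclude a shared preparation. With the replicate block, 21 shared families were higher and 3 lower, and 140 shared subfamilies were higher.

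Differences that reversed were hAT-Blackjack at -0.00991 and L1 at 0.21 with elements counted in all 3 libraries, L1 at 0.13 without exon overlap, ERVK at -0.20 without the 10 highest elements and -1.60 under TMM, and ERVL-MaLR at -0.46 under TMM. Within mESC, ERVK reversed to 0.37 by element number and 0.0349 without the 10 highest elements. Within K562, ERV1 reversed to 0.35, Gypsy? to -0.24 and Alu to -0.73 by element number, Gypsy? to -0.29 with limma and -1.17 without K562 replicate 1 (1.10 without replicate 2), Alu to -1.70 with elements counted in all 3 libraries, and ERVK to -0.16 without the 10 highest elements and -0.0551 without exon overlap. K562 is the shallower line, which limits single elements and small families most.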
